A study of Mus musculus with 6 samples.

Results

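Chemokines are small secreted proteins that direct the movement of leukocytes. The genes described here are the chemokine ligands of the CC, CXC, XC and CX3C families, the receptors that bind them, and the atypical receptors that bind or present ligands without the usual G protein signalling. The rule for membership reads gene symbols and not measured values, although it was written with earlier results of these data known. It takes every probe set with a single platform symbol beginning Ccl, Cxcl, Ccr or Cxcr and a digit, together with the platelet chemokines Pf4 and Ppbp, Xcl1, Xcr1, Cx3cl1, Cx3cr1, Ccrl2 and Ackr1 to Ackr4. This gave 74 probe sets for 56 genes, 34 ligands and 22 receptors, among 12393 genes measured on the array. A gene with several probe sets was represented by the brightest.

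The samples were cultured hepatocytes, which form the bulk of liver tissue, from Alb/AEG-1 mice and from wild-type mice. In Alb/AEG-1 mice a transgene raises AEG-1, the product of the gene Mtdh, specifically in hepatocytes; Alb stands for albumin, whose promoter is active in that cell type. Both groups were of mixed B6/CBA strain, received no treatment and were harvested 24 h after plating on collagen, with 3 arrays per genotype. The sample titles call the replicates biological. The labels read for this work do not state age, sex, the number of founder lines or whether each replicate was a separate animal or culture, and p-values reflect only how far these arrays differ. The comparison asks which chemokine genes change with excess AEG-1, a protein known to activate the inflammatory transcription factor NF-kB.

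In the liver, chemokines of the CXCR3 group (Cxcl9, Cxcl10 and Cxcl11) are induced by interferons and draw T and NK cells. CXC ligands such as Cxcl1 and Cxcl2 draw neutrophils through CXCR2, and many inflammatory CC ligands draw monocytes, macrophages and T cells. Hepatocytes, resident macrophages (Kupffer cells) and endothelial cells can all make them, and several of their promoters carry sites for NF-kB and interferon-activated factors.

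The arrays were alike in their medians, from 5.61 to 5.64 on the log2 scale, and arrays of one genotype correlated more closely (0.9976 to 0.9982) than arrays of different genotypes (0.9933 to 0.9940). The brightest Mtdh probe set read 10.72, 10.40 and 10.81 in transgenic cells and 8.75, 8.78 and 8.64 in wild-type cells. Of the 6 Mtdh probe sets it alone carried a rise of this size. Another was higher in transgenic cells by 0.24 (adjusted p = 0.0495 by limma over all probe sets). The remaining ones differed by -0.27 to 0.00 and did not pass. All 10 measured hepatocyte markers lay at 11.25 or above on every array. Genes were called by limma at a Benjamini-Hochberg adjusted p under 0.05. Differences are transgenic minus wild type on the log2 scale, where 1 is a doubling. All levels are log2 values of one probe set, and levels of different genes are not compared.

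Promoter sequence is shown for 4 CXC ligands. They were selected as the ligand with the smallest adjusted p (Cxcl9), the nearby Cxcl10, and the adjacent pair Cxcl2 and Cxcl1, which differed in their response. The sequences are RefSeq's, build GRCm38.p6, and each is the 250 bases before the annotated start, 5′ to 3′ on the gene's strand. Cxcl9 lies at chr5:92328080-92328329 and Cxcl10 at chr5:92348890-92349139, both on the minus strand, with Cxcl2 at chr5:90903649-90903898 and Cxcl1 at chr5:90890995-90891244 on the plus strand. Capitals mark matches, on either strand, to the kappa-B consensus (the site of NF-kB), to the interferon-stimulated response element searched as GAAA, any 2 bases and GAAA, or to the interferon-gamma activated site searched as TTCNNNGAA.
Cxcl9: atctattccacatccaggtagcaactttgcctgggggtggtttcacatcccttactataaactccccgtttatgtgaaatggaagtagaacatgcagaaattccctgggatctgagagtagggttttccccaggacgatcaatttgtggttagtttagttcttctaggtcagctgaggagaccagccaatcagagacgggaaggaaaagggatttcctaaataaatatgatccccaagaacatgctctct
Cxcl10: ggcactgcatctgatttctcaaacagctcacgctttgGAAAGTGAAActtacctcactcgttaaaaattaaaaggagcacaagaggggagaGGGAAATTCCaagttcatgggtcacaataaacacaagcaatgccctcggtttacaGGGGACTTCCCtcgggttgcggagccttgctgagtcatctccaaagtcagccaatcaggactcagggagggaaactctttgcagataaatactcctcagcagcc
Cxcl2: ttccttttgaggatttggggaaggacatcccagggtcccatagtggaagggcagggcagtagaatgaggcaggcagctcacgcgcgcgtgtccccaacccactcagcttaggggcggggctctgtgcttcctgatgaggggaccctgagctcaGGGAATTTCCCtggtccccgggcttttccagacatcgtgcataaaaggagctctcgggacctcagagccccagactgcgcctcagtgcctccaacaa
Cxcl1: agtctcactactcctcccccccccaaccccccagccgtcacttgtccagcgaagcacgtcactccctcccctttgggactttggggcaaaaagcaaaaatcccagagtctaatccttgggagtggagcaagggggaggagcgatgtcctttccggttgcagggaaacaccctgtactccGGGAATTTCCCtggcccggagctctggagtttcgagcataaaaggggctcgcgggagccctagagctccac

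The Cxcl10 window held 2 separate kappa-B stretches, beginning at -159 and -104 from the start, and 1 interferon-stimulated response element beginning at -213. Cxcl2 and Cxcl1 each held 1 kappa-B stretch with the same letters, GGGAATTTCCC, beginning at -97 and -71. No match to the 3 motifs as spelled lay in the Cxcl9 window, which says only that these letters are not there. The stretch at -104 in Cxcl10 and GGGAATTTCCC in Cxcl2 and Cxcl1 each hold overlapping kappa-B matches and are given as single stretches. Of 32851 promoter windows of this length in the RefSeq table, 7.25% held the kappa-B consensus, 2.98% the interferon-stimulated response element and 7.02% TTCNNNGAA. Windows were at hand for 43 of the 56 genes, some with several starts, and 11 of these genes held the kappa-B consensus in at least 1 window. Of the 9 risen members with a window, 4 held it (Cxcl10, Cxcl2, Ccl9 and Ccrl2), and Cxcl10 and Cxcl14 held the interferon-stimulated response element. TTCNNNGAA was in windows of 4 of the 43 genes (Ccl17, Ccr1l1, Ccr6 and Cxcl14), 1 of them risen. The shares over the RefSeq table count windows, whereas the member counts are of genes with a match in any window. The shares and counts are therefore unlike measures, and a share per gene over all genes was not taken. These matches are a description of sequence and not evidence of binding.

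Chemokine genes were more often higher than lower in transgenic hepatocytes: 15 of 56 were called higher, 1 was called lower and 40 did not pass. Over all genes 15.9% were called, 6.83% higher and 9.05% lower. The risen genes were 12 ligands and 3 receptors, and the fallen gene was the atypical receptor Ackr1. In such a bulk preparation, more or fewer cells of a type and more or less RNA per cell cannot be told apart. The median difference was 0.12 over the 56 genes and 0.01 over all 12393 genes. For 20 members every transgenic array was above every wild-type array and for 2 members below, against 16.9% and 17.6% of all genes. Of the risen genes, 7 rose by at least 1.5-fold, namely Cxcl9, Ccl3, Ccl5, Cxcl2, Ccl4, Cxcl10 and Ccrl2. These 7 passed under every alternative processing in which they were measured. A minimum of 1.5-fold was itself one alternative, so the other 9 called members had to lose their call there; Cxcr4 lost it under that rule alone, and Ccl7 under that rule and at an adjusted p under 0.01.

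**Figure D1:**
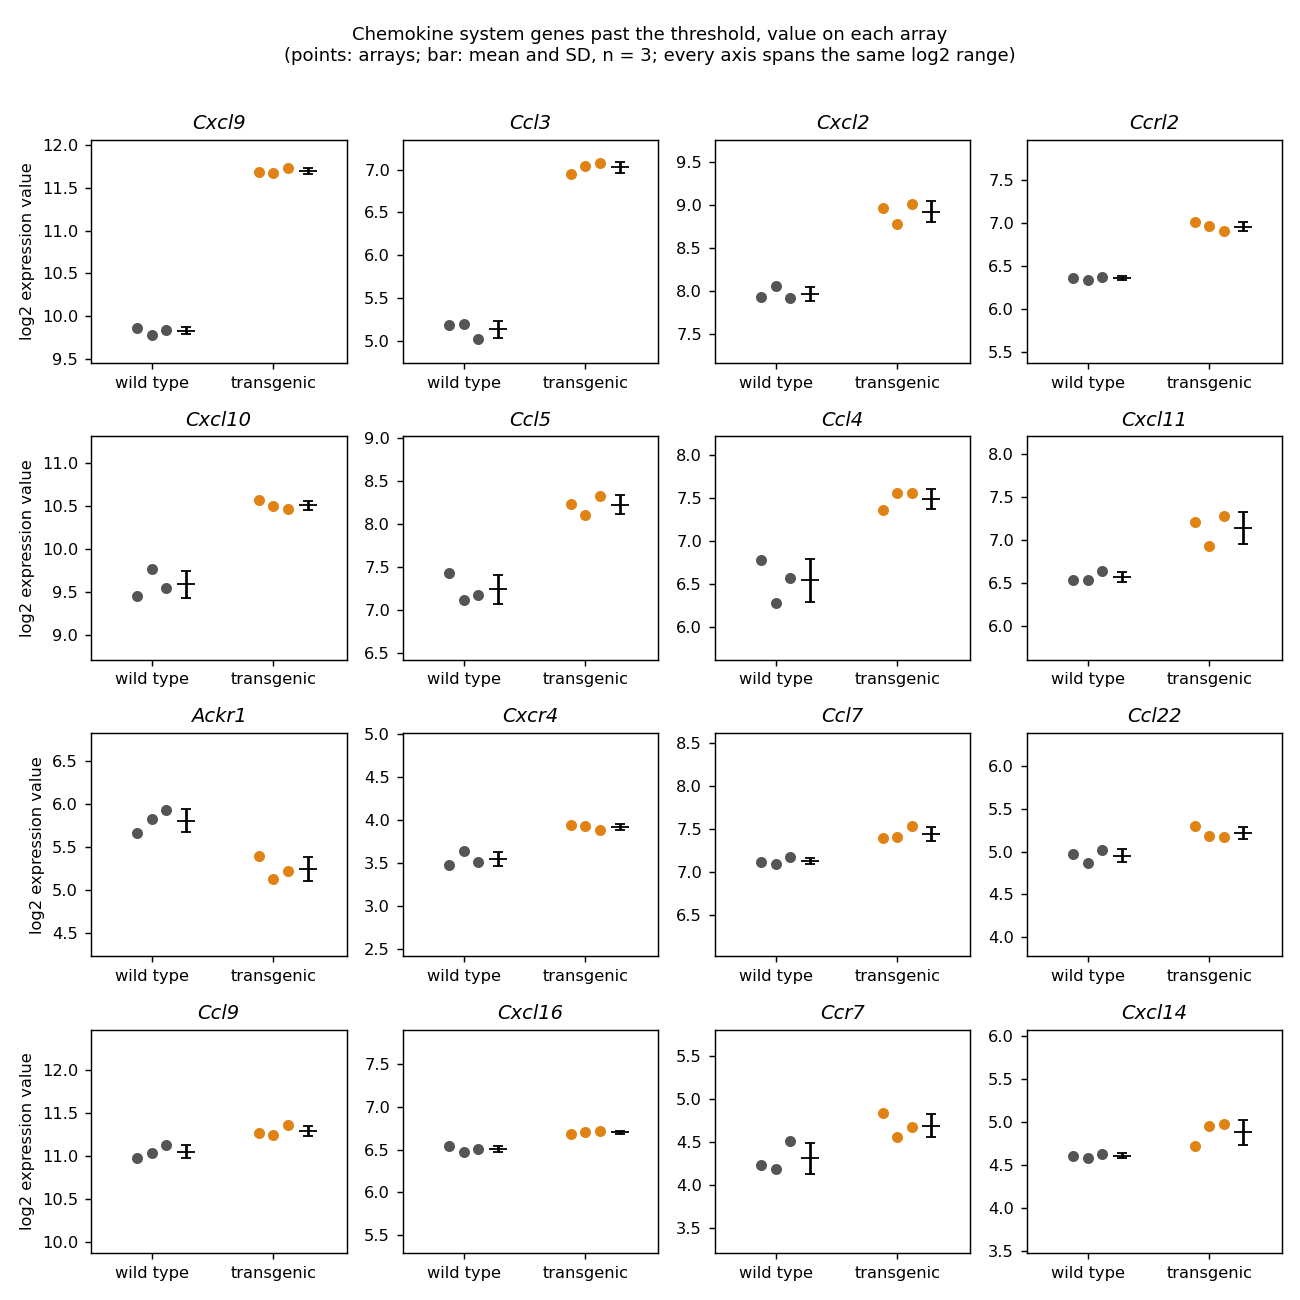
Log2 expression value on each array for the 16 chemokine and receptor genes past the threshold, ordered by adjusted p; points are arrays, the bar beside them is the mean with its SD (n = 3), and every panel spans the same log2 range. The transgenic arrays of Cxcl9 lie between 11.67 and 11.73 and its wild-type arrays between 9.78 and 9.86, while Cxcl16, Ccl9 and Ccl22 show small shifts with little room between the groups.

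All 3 CXCR3 ligands rose. Cxcl9 read 11.68, 11.67 and 11.73 on the transgenic arrays against 9.86, 9.78 and 9.84 on the wild-type arrays. Every transgenic array was far above every wild-type array, and the spread within a genotype was 0.03 and 0.04 (SD, n = 3). The rise was 3.64-fold, or 1.87 with a 95% interval of 1.74 to 1.99 (SE 0.05, adjusted p = 1.38e-06). Cxcl10, which like Cxcl9 recruits activated T and NK cells, read 10.57, 10.50 and 10.46 against 9.46, 9.77 and 9.55. Its groups did not overlap either, and it rose 1.89-fold (0.92, 95% interval 0.72 to 1.11, adjusted p = 0.000325). The intervals of Cxcl9 and Cxcl10 are apart, although a test between the genes was not run.

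Cxcl11, the remaining ligand of CXCR3, read 7.21, 6.93 and 7.28 in transgenic cells and 6.54, 6.53 and 6.64 in wild-type cells. It rose 1.49-fold (0.57, SE 0.09, adjusted p = 0.00525), with transgenic replicate 2 the lowest of its group. The RefSeq table of the C57BL/6J assembly lists Cxcl11 as a transcribed pseudogene, so a transcript signal in mice of partly B6 strain need not stand for protein. A second, dim Cxcl11 probe set gave -0.08, and with the mean of both the difference was 0.25 (adjusted p = 0.130). The shared receptor gene Cxcr3, carried mainly by T and NK cells, was at 4.23 ± 0.05 against 4.17 ± 0.16 (SD, n = 3), a difference of 0.06 with an interval from -0.14 to 0.26.

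Among ligands that draw neutrophils, 1 of 5 measured genes passed. Cxcl2, a ligand of CXCR2 also known as MIP-2, read 8.97, 8.79 and 9.01 in transgenic cells and 7.93, 8.06 and 7.92 in wild-type cells. It rose 1.94-fold (0.96, 95% interval 0.78 to 1.13, adjusted p = 0.000164), with a clear gap between the groups. Its neighbour Cxcl1 (KC), which binds the same receptor, read 11.67, 11.60 and 11.68 against 11.69, 11.75 and 11.75. For Cxcl1 the transgenic arrays lay just under the wild-type arrays, and the difference of -0.08 (95% interval -0.21 to 0.04, adjusted p = 0.373) did not pass. The interval of Cxcl1 lies wholly below that of Cxcl2. This pair was picked for the promoter display because its responses differed, and any part of the kappa-B stretches was not tested. A test between these genes was not run. Cxcl5, Cxcl15 and the platelet gene Ppbp gave differences of 0.11, 0.08 and 0.19, all at levels under the array median, and Cxcr2 itself gave 0.19 (adjusted p = 0.265).

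In the inflammatory CC group 6 of 15 ligands rose, and the others did not pass. Ccl3 (MIP-1 alpha), a macrophage inflammatory protein that acts through CCR1 and other receptors, read 6.95, 7.05 and 7.07 in transgenic cells and 5.19, 5.20 and 5.02 in wild-type cells. No member rose further: 3.70-fold, or 1.89 with a 95% interval of 1.73 to 2.05 (adjusted p = 2.84e-06). The wild-type level lies under the array median, where the fold is less certain. Ccl4 (MIP-1 beta), the gene beside it, read 7.36, 7.56 and 7.56 against 6.78, 6.28 and 6.57. Its groups were separate but its wild-type arrays were spread by 0.25 (SD), and the rise was 1.93-fold (0.95, 95% interval 0.67 to 1.24, adjusted p = 0.00180).

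Ccl5 (RANTES), which attracts T cells, monocytes and eosinophils, read 8.24, 8.11 and 8.33 in transgenic cells and 7.43, 7.11 and 7.17 in wild-type cells. It was 1.98-fold higher (0.99, 95% interval 0.76 to 1.21, adjusted p = 0.000439). Ccl7 (MCP-3), a monocyte attractant that binds CCR2, read 7.40, 7.41 and 7.54 against 7.12, 7.10 and 7.17, and rose 1.25-fold (0.32, adjusted p = 0.0108). The groups of both genes were apart on every array. By contrast Ccl2 (MCP-1), the principal ligand of CCR2, read 7.63, 7.52 and 7.60 in transgenic cells and 7.72, 7.69 and 7.57 in wild-type cells. Its groups overlapped, and the difference was -0.08 (95% interval -0.22 to 0.07, adjusted p = 0.488).

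Smaller rises were seen for Ccl9 and Ccl22. Ccl9, a CCR1 ligand of mice, read 11.26, 11.25 and 11.36 against 10.98, 11.03 and 11.13 (0.24, adjusted p = 0.0372). Both Ccl9 probe sets gave nearly the same difference, 0.24 and 0.25. Ccl22, which attracts CCR4-bearing T cells, read 5.29, 5.18 and 5.17 against 4.97, 4.87 and 5.01 (0.27, adjusted p = 0.0282), at levels under the array median. Each of these calls was lost when any single array other than wild-type replicate 3 was left out, with adjusted p from 0.0669 to 0.115 for Ccl9 and from 0.0547 to 0.0985 for Ccl22. The remaining members of this group gave differences from -0.08 for Ccl2 to 0.19 for Ccl11, the eosinophil attractant eotaxin. Ccl17, which shares the receptor CCR4 with Ccl22, gave 0.06, and Ccl20 and Ccl24 gave -0.04 and -0.05.

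**Figure D2:**
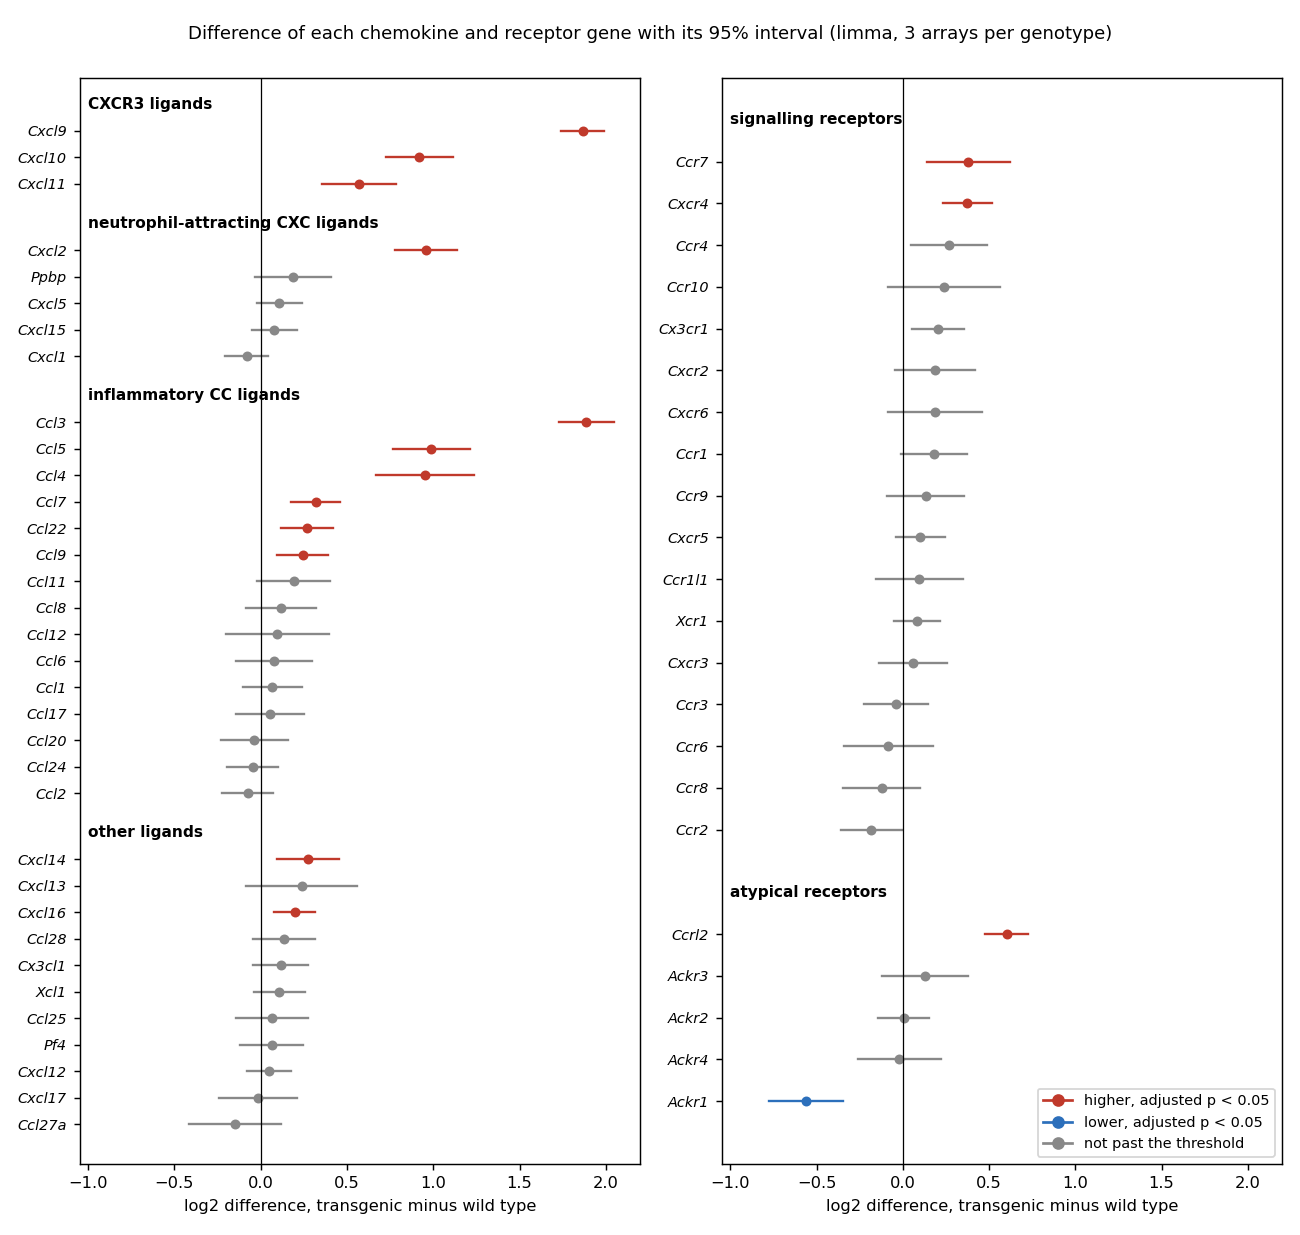
Difference of each of the 56 genes on the log2 scale, transgenic minus wild type, with its 95% interval from limma, ordered within each role; red is higher, blue lower and grey not past the threshold. Cxcl9 and Ccl3 stand at 1.87 and 1.89, a second set of ligands lies near 1, and 15 of the 17 signalling receptors have not passed.

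Of 11 other ligands, many of them made constitutively to place leukocytes in tissues, 2 passed, both weakly. Cxcl16, a membrane-bound chemokine and scavenger receptor, read 6.68, 6.70 and 6.72 in transgenic cells against 6.54, 6.47 and 6.50 (0.20, adjusted p = 0.0382). Its groups did not overlap, but its other probe set gave 0.02, and the call was lost without any one of the 6 arrays (adjusted p from 0.0524 to 0.106). Cxcl14, a chemokine of epithelia, read 4.72, 4.95 and 4.97 against 4.61, 4.58 and 4.63 (0.27, adjusted p = 0.0481). Its second probe set gave -0.12, and leaving out any array other than transgenic replicate 1 ended the call (adjusted p from 0.0943 to 0.142).

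Cxcl12 (SDF-1), the homeostatic ligand of CXCR4, read 8.59, 8.55 and 8.54 in transgenic cells and 8.54, 8.45 and 8.54 in wild-type cells. The groups overlapped, and the difference was 0.05 (95% interval -0.08 to 0.18, adjusted p = 0.612). Its second probe set gave -0.12 (adjusted p = 0.220 by limma over all probe sets), with transgenic arrays at 8.19, 8.23 and 8.22 all below wild-type arrays at 8.31, 8.33 and 8.34. The probe sets of Cxcl12 therefore disagree in sign, and neither passed. Cx3cl1, the membrane-bound fractalkine, gave 0.11, and Xcl1, made by T and NK cells, gave 0.11 as well. Without wild-type replicate 1 the B cell attractant Cxcl13 passed (0.42, adjusted p = 0.00993), against 0.24 and an adjusted p of 0.314 with all arrays, where its wild-type arrays read 5.66, 5.17 and 5.09. The other members of this group ranged from -0.15 for Ccl27a to 0.13 for Ccl28, whose dimmer probe set gave -0.13. Ccl25 and Cxcl17 gave 0.07 and -0.02.

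All 17 measured signalling receptors lay below the median gene level of 6.06, and 2 of them passed. Cxcr4, the receptor of Cxcl12, read 3.94, 3.93 and 3.88 in transgenic cells and 3.48, 3.64 and 3.51 in wild-type cells (0.37, SE 0.06, adjusted p = 0.00565). Ccr7, a lymph node homing receptor of T cells and dendritic cells, read 4.83, 4.56 and 4.67 against 4.23, 4.18 and 4.51 (0.38, SE 0.10, adjusted p = 0.0440). The groups were separate for both genes, but these levels are close to the low end of the arrays, and a fold is uncertain there. The Ccr7 call was lost without transgenic replicate 1 or 3 or wild-type replicate 1 or 2 (adjusted p from 0.103 to 0.139).

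Other receptors of the risen ligands did not pass with all arrays. Ccr1, a receptor of Ccl3 and Ccl9, read 3.76, 3.51 and 3.75 against 3.58, 3.47 and 3.43 (0.18, adjusted p = 0.198). Cx3cr1, a receptor of monocytes and macrophages, averaged 6.11 against 5.91 with no overlap between the groups, but with 0.20 (adjusted p = 0.0764) it missed the threshold. Ccr2, the receptor of Ccl2 and Ccl7, gave -0.18 (adjusted p = 0.156) and passed as lower only without wild-type replicate 2 (-0.26, adjusted p = 0.0403), at levels near 3 where its other probe sets gave 0.09 and 0.10. Ccr1l1 passed as higher without wild-type replicate 1 (0.23, adjusted p = 0.0465) and otherwise gave 0.09. Cxcr6, the receptor of Cxcl16, gave 0.19, and Ccr4, the receptor of Ccl22, gave 0.27 (adjusted p = 0.0994). Ccr3, the eotaxin receptor that also binds Ccl5 and Ccl7, gave -0.04 (adjusted p = 0.795). The remaining receptors ranged from -0.12 for Ccr8 to 0.24 for Ccr10, with Ccr6, Ccr9, Cxcr5 and Xcr1 between them.

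Among 5 atypical receptors 1 rose and 1 fell. Ccrl2, which binds the chemoattractant chemerin and presents it to other cells, read 7.01, 6.97 and 6.91 in transgenic cells and 6.37, 6.34 and 6.38 in wild-type cells. It rose 1.52-fold (0.60, 95% interval 0.48 to 0.73, adjusted p = 0.000292), with narrow spread in both groups. Ackr1 (the Duffy antigen receptor), which binds many inflammatory chemokines on endothelium and red cells, read 5.39, 5.12 and 5.22 against 5.66, 5.83 and 5.93. It was 1.48-fold lower (-0.56, SE 0.09, adjusted p = 0.00565), and every transgenic array was under every wild-type array. Both genes rest on a single probe set of the _a_at type, and without moderation of the variance Ackr1 missed the threshold (adjusted p = 0.0608). Ackr2, Ackr3 and Ackr4, scavengers of CC ligands, of Cxcl12 and of homeostatic CC ligands, gave 0.00, 0.13 and -0.02.

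Several chemokine genes sit side by side, and some runs of neighbours held mostly risen genes while others held few or none. Differences between neighbours were not tested. In RefSeq gene order, 32 of the 56 members fell into 7 runs with at most 5 other genes between successive members. On chromosome 5, Cxcl9, Cxcl10 and Cxcl11 form a run, with 1 other gene between Cxcl9 and Cxcl10, and all rose, by 1.87, 0.92 and 0.57. A separate run on the same chromosome holds Cxcl5, Ppbp, Pf4, Cxcl15, Cxcl1 and Cxcl2, of which Cxcl2, the last in order, was called. On chromosome 11, the run of Ccl5, Ccl9, Ccl6, Ccl3 and Ccl4 had 4 of its 5 genes risen, with Ccl6 at 0.08 (adjusted p = 0.659) and at -0.08 on its other probe set. The other run there, Ccl2, Ccl7, Ccl11, Ccl12, Ccl8 and Ccl1, had 1 of 6 risen, Ccl7. None of the 7 receptors in a run on chromosome 9 passed limma (0 called, and 1 of them, Ccr2, at an unadjusted p under 0.05, against 28.9% of all genes).

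**Figure D3:**
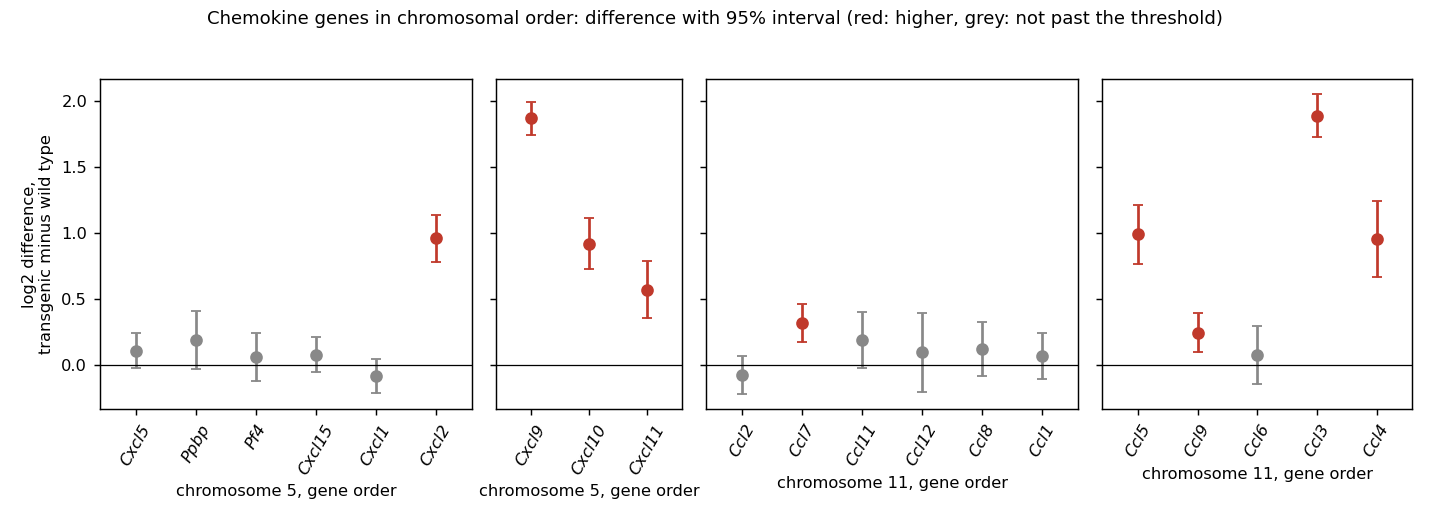
Difference with its 95% interval for the ligand genes of chromosomes 5 and 11 in the order in which RefSeq lists them; each panel is one run of neighbouring genes, and distances are not to scale. Cxcl2 at 0.96 stands beside Cxcl1 at -0.08, and Ccl3 at 1.89 beside Ccl6 at 0.08.

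Calls differed with level on the array. Of the 16 members whose mean over the 6 arrays reached the median gene level of 6.06, 11 were called higher and 0 lower by limma, where 9.71% and 15.1% of all 6197 genes at that level were called. Ccl3, one of the 11, reached this level only through its transgenic arrays (7.02 against 5.14), so its place there follows from its own difference. Cxcl1, whose arrays did not overlap, gave -0.08 without passing. Of the 40 dimmer members 4 were called higher (Ccl22, Cxcr4, Ccr7 and Cxcl14) and 1 lower (Ackr1), against 3.94% and 3.02% of the 6196 genes at that level. Positive differences were common among dim genes in general, at 60.6% of all of them and in 31 of the 40 dimmer members. The median difference was 0.10 for the dimmer members and 0.03 for all dimmer genes.

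**Figure D4:**
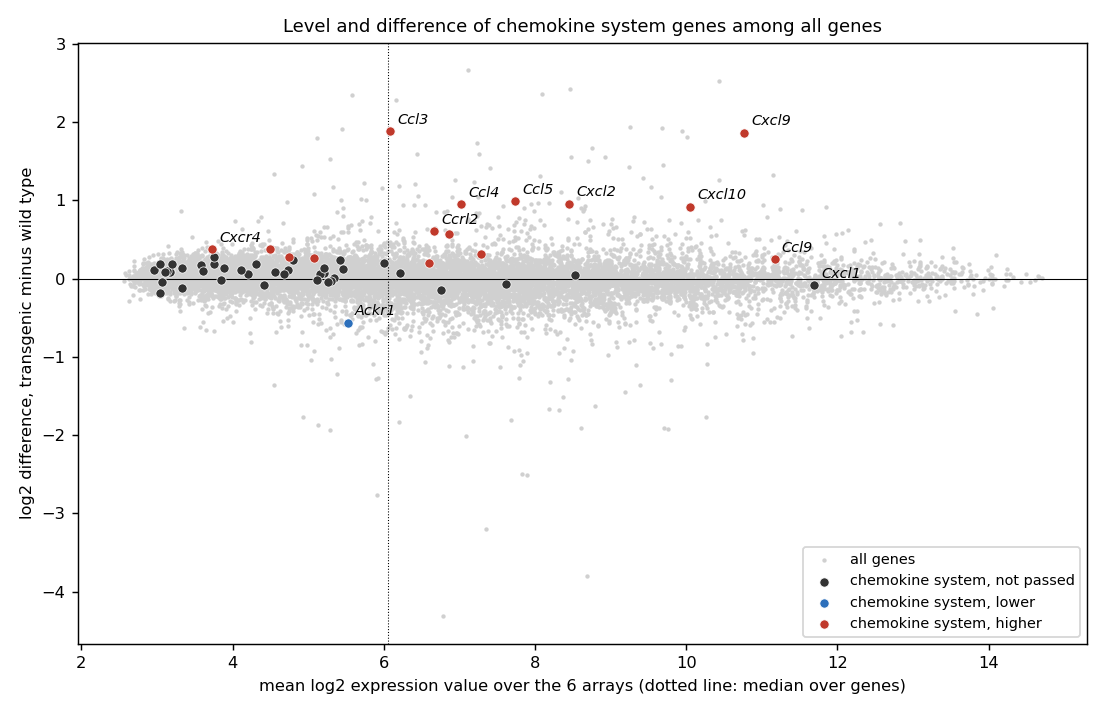
Mean log2 level over the 6 arrays (horizontal) against the log2 difference, transgenic minus wild type (vertical), for all 12393 genes in light grey and the 56 chemokine system genes in colour; the dotted line is the median gene level of 6.06. Most members lie left of that line near 0, among them the called ligands Ccl22 and Cxcl14, and the other 10 called ligands lie to its right.

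Genes that act upstream of chemokines were examined from lists written for this purpose. For the counts at an unadjusted p under 0.05 given with these lists, the share over all genes was 28.9%, or 3586 of 12393. Beside the called counts of these lists and of the cell markers below, limma called 15.9% of all genes, 6.83% higher and 9.05% lower. Of 15 cytokines that induce chemokines 6 rose and 1 fell. Il6 averaged 6.01 against 4.22 with no overlap (1.80, adjusted p = 0.000110), and Il33, an alarmin, read 8.81, 8.63 and 8.71 against 7.29, 7.59 and 7.35 (1.31, adjusted p = 7.42e-05). Il1b rose by 0.51, while Il18 fell by 0.34 (adjusted p = 0.00383). Ifng, the main inducer of Cxcl9 and named after its value was seen, was at 2.92 against 2.98, near the bottom of the scale (adjusted p = 0.542), and Tnf gave 0.27 (adjusted p = 0.0505). The other risen genes, Il1a, Ifnb1 and Ifna4, each lost the call without 4 or 5 of the 6 arrays left out in turn (adjusted p from 0.0679 to 0.133).

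A list of receptors for those cytokines also holds the microbial sensors Tlr2, Tlr3 and Tlr4 and the adaptor Myd88. Of its 17 genes 4 rose and 1 fell. Tlr2, a sensor of bacterial lipoproteins, rose by 0.68, Tlr3 by 0.47 and the interferon-gamma receptor chain Ifngr2 by 0.47, while Il1r1 lost its call without 4 of the arrays (adjusted p up to 0.0852). The adaptor Myd88 fell by 0.35, a call lost without wild-type replicate 2 (adjusted p = 0.0538). Second probe sets of Tlr3 and Ifngr2 gave 0.22 and 0.05. Of 13 NF-kB subunits and inhibitors 2 rose and 1 fell. They were the NF-kB cofactor Bcl3 at 0.31, the inhibitor Nfkbia at 0.21 with each of its 4 probe sets positive, and the subunit Rel at -0.30. The Nfkbia and Rel calls were lost without transgenic replicate 2 or 3 or wild-type replicate 2 or 3, and that of Nfkbia also without transgenic replicate 1 (adjusted p from 0.0633 to 0.118). Tnfaip3 gave 0.33 (adjusted p = 0.0558).

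The STAT and IRF list also holds Jak1, Jak2, Socs1 and Socs3, and of its 16 genes 5 rose and 0 fell by limma. Of these 16, 7 were at an unadjusted p under 0.05. Socs1, an inhibitor of interferon signalling, rose by 0.78 (adjusted p = 0.000439). Irf9 and Stat2, which form the interferon-stimulated factor, rose by 0.59 and 0.38, and Irf7 rose by 0.53, while Irf8 lost its call without any array other than transgenic replicate 2 (adjusted p up to 0.137). Below the chemokine receptors, 1 of 22 signalling genes rose and 1 fell. Rgs2, a brake on G protein signalling, rose by 1.10, with both probe sets past the threshold. Gnai1, an inhibitory G protein subunit, fell by 1.93, by 0.81 without the probe sets that match several transcripts. Its remaining, dimmest probe set gave -0.14 (adjusted p = 0.566 by limma over all probe sets). Dock2 and Gng2 gave 0.23 and 0.25 without passing. Of 15 genes of chemokine cleavage and matrix binding, 0 passed limma and 3 were at an unadjusted p under 0.05. These were the protease genes Adam10 at -0.21 (adjusted p = 0.0522), Mmp2 at 0.28 (adjusted p = 0.0731) and Dpp4 at -0.17 (adjusted p = 0.152), and Ctsg gave -0.21 (adjusted p = 0.202). A dimmer Adam10 probe set went the other way, at 0.32 with no overlap of the arrays (adjusted p = 0.0261 by limma over all probe sets), and the remaining one gave 0.05. List medians were 0.13 for cytokines, 0.11 for the receptor list, 0.10 for NF-kB genes and 0.12 for the STAT and IRF list. They were 0.04 for receptor signalling and -0.04 for cleavage, against 0.01 over all genes.

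Markers of other liver cells were measured beside the ligands, since Kupffer, endothelial and lymphoid cells also make chemokines. The summed linear signal of 15 Kupffer cell and macrophage markers was 1608 to 1658 in transgenic and 1388 to 1546 in wild-type cells, with 4 markers risen and 1 fallen. Ptprc, the pan-leukocyte gene, rose by 0.61 and the mannose receptor Mrc1 by 0.46, while Cd163 fell by 0.31. Marco at 0.69 and C1qc at 0.35, named after their values were seen, were the other risen markers. Of the 15 differences 13 were positive, and 10 markers did not pass. Those 10 ranged from -0.10 for Csf1r to 0.30 for C1qb. Among them, Clec4f, Cd5l, Vsig4 and Adgre1 gave 0.06, 0.02, 0.12 and 0.16. Leaving out single arrays ended the calls of Cd163 (adjusted p up to 0.0672, without transgenic replicate 1 or 2 or wild-type replicate 3), Marco (up to 0.0600, without transgenic replicate 1 or wild-type replicate 2 or 3) and C1qc (up to 0.0837, without transgenic replicate 1 or 2 or wild-type replicate 1 or 2). For 12 sinusoidal endothelial markers the sum was 1020 to 1093 against 868.3 to 970.5, with Clec4g up by 0.50 and Kdr by 0.41. The Kdr call was lost without transgenic replicate 2 or 3 or wild-type replicate 2 or 3 (adjusted p up to 0.0686). A second, dimmer Clec4g probe set gave 0.17 (adjusted p = 0.458 by limma over all probe sets). The other 10 endothelial markers did not pass. Of the 12 differences 9 were positive, and Cdh5, Stab1 and Fcgr2b gave -0.11, -0.05 and -0.01.

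T and NK cell markers summed to 336.3 to 352.0 in transgenic and 324.0 to 355.2 in wild-type cells, and 0 of 12 passed limma (1 at an unadjusted p under 0.05, against 28.9% of all genes). Neutrophil markers summed to 182.2 to 196.8 against 184.2 to 191.7, with 0 of 9 called and 0 at an unadjusted p under 0.05. Dendritic cell markers summed to 141.3 to 152.8 against 140.5 to 150.7, with 0 of 6 called and 0 at an unadjusted p under 0.05. Platelet markers summed to 364.8 to 388.7 against 328.1 to 358.8, with 1 of 8 risen, Gp5, a call lost without any one array (adjusted p from 0.0579 to 0.148). Stellate cell markers summed to 899.0 to 940.8 against 850.2 to 914.0, with 1 of 10 risen, Lum, likewise lost without any one array (adjusted p from 0.0531 to 0.114). Cholangiocyte markers summed to 327.7 to 346.9 against 283.7 to 297.1, a gap set largely by Epcam, up by 1.52. Epcam was the 1 risen marker of 5. Krt19, Cftr, Sox9 and Krt7 gave 0.36, 0.05, -0.02 and -0.03 without passing.

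B cell markers summed to 243.9 to 249.7 against 501.5 to 548.9, a gap set by Ighm. Ighm fell by 1.80 on its brightest probe set and gave 0.14 (adjusted p = 0.408) when probe sets that match several transcripts were left out. Its probe sets conflicted. A dimmer one fell by 2.10 and another rose by 0.31 (adjusted p = 5.49e-06 and 0.0166 by limma over all probe sets), and the remaining ones did not pass. The other 5 B cell markers did not pass. Hepatocyte markers summed to 137300 to 140500 against 134500 to 137900, with 1 of 10 risen, Ahsg by 0.21, a call lost without any one array (adjusted p from 0.0588 to 0.103). RMA gives every probe set a value above 0, so no marker was at 0. The part of macrophage, endothelial, platelet and cholangiocyte signal in the ligand differences was not tested. Across the lists of pathway genes and cell markers 34 genes were called with all arrays and 21 without wild-type replicate 2.

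**Figure D5:**
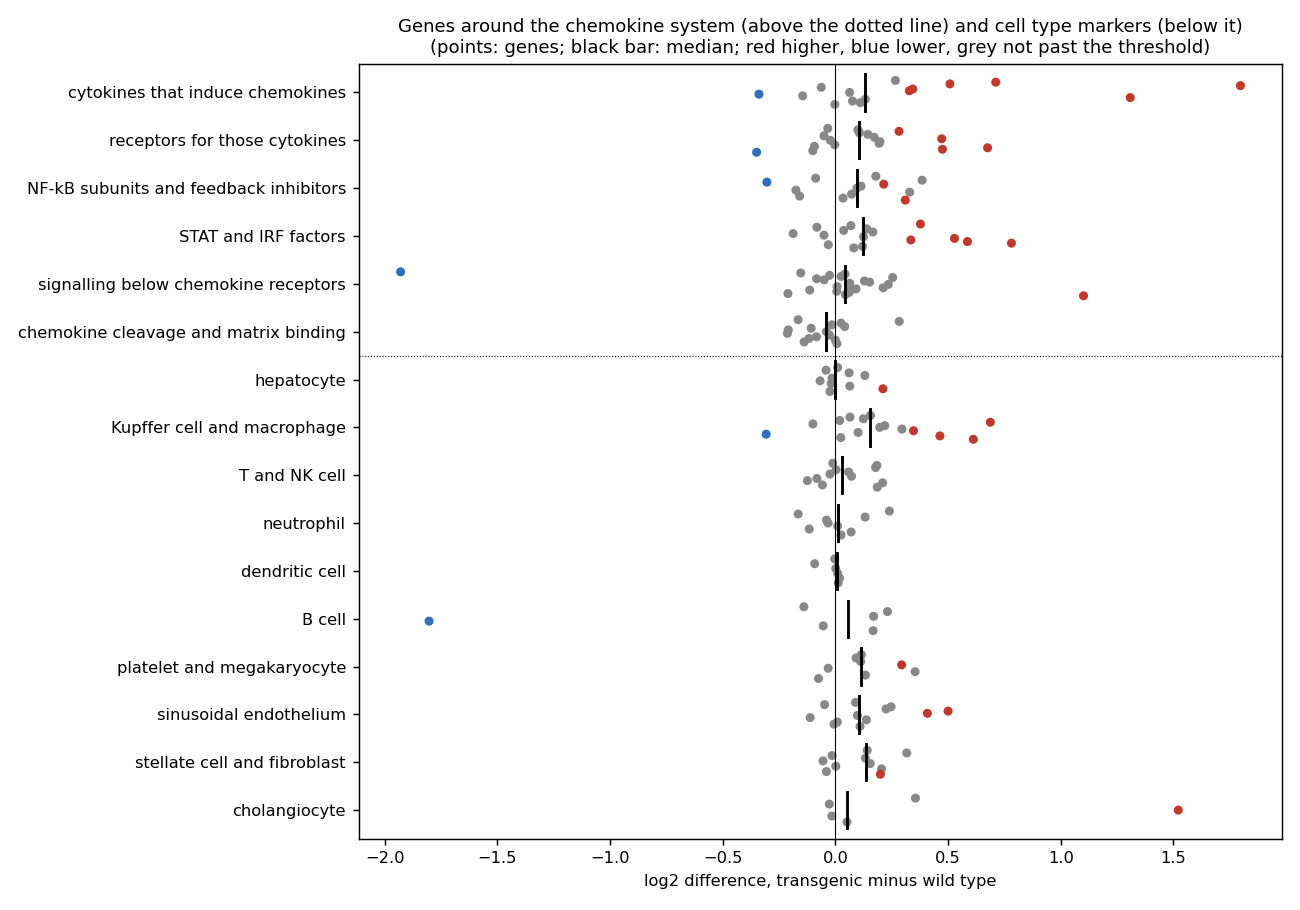
Differences of the genes on each list on the log2 scale, transgenic minus wild type; points are genes, black bars are list medians, red is higher, blue lower and grey not past the threshold. Cytokines that induce chemokines reach 1.80 (Il6), while T and NK cell, neutrophil and dendritic cell markers lie within 0.24 of 0.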

How the data were processed

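Gene expression was measured on 6 Affymetrix arrays, 3 per genotype. The authors deposited log2 signal for each probe set, computed by RMA; the submitters' processing notes name Affymetrix Expression Console as the software, without a version, and do not say whether all arrays were normalized together. RMA gives arrays a common distribution, so a difference is relative to other genes. The number of arrays limits the precision, and no batch label was given.

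The table held 22690 probe sets, of which 20380 carried 1 symbol in the platform annotation and gave 12393 genes. Differences were tested with limma 3.58.1 (lmFit and eBayes, R 4.3.3) on all genes, two-sided, with Benjamini-Hochberg adjustment and a threshold of 0.05. On simulated arrays drawn from the levels and variances of the 12393 genes, the test recovered 68.5% of 200 genes changed by 0.5 and 98% of 200 changed by 1, with 6 and 5 false calls, and made 0 calls with no change. Motifs were searched on both strands of RefSeq promoter windows (GRCm38.p6), and gene order was taken from the RefSeq table of that assembly without coordinates.

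Members and lists were chosen with earlier results of these data known. Every called member is named with its value on each array, together with uncalled ligands and receptors of called members and those whose probe sets disagree in sign. Of each pathway list up to 4 genes with the smallest p, and of each cell list up to 3 called genes, are named; further listed genes were picked once their values were known. Alternatives changed the probe sets standing for a gene, the exclusion of dim genes, the normalization, the variance model, the array weights, a block for the replicate number, each array left out, and stricter thresholds.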

Additional observations from a re-analysis of the deposited data

How the results depend on the processing

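Of the 16 called members, 7 (Cxcl9, Ccl3, Cxcl2, Ccrl2, Cxcl10, Ccl5 and Ccl4) stayed past the threshold under every alternative that measured them, out of 19 run. The other 9 lost the call under at least 1, which the 1.5-fold minimum made certain. The sole member that changed sign was Cxcl14, which gave -0.12 without probe sets that match several transcripts, and among marker genes Ighm gave 0.14 under the same setting. With a 1.5-fold minimum, 7 members were higher, 0 lower and 7 called in all, of 358 genes called, with 12 of the pathway and marker genes. At an adjusted p under 0.01, 9 members were higher and 10 called, of 918 genes, with 19 pathway and marker genes. Without moderation, 0 members were lower and 10 were called, of 1271 genes, with 20 pathway and marker genes. The count of lower members was also 0 without probe sets that match several transcripts and with dim genes left out, which remove Ackr1 from the test.

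Leaving out each array in turn gave 10 to 13 higher and 1 to 2 lower members (11 to 14 called), 1267 to 1700 called genes overall and 21 to 34 called pathway and marker genes; the count of all genes was lowest without transgenic replicate 1. Replicate numbers are shared by the genotypes, but deviations of same-numbered arrays correlated at -0.0103, -0.00973 and 0.104, so the numbers were not taken to pair the samples. With the replicate block, 11 members were higher and 1 lower, and 1505 genes were called. The arrays give no depth, and all 17 signalling receptors lie below the median gene level.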

Other observations

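Of the probe sets that carry several symbols, 4 name a chemokine and stayed outside the comparison. The one shared by Ccl21 copies was at 5.76 in transgenic and 5.56 in wild-type cells, and the one shared by Ccl19 and its copies at 5.72 and 5.71. The remaining 2, shared by Ccl27a and Ccl27b, were at 7.28 and 7.30, and at 7.06 and 7.04. None of these values was tested.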
